A study of Homo sapiens with 24 samples.

Results

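The miR-23, miR-27 and miR-24 microRNAs (miRNAs) come from 2 related gene clusters, one on chromosome 19 and one on chromosome 9. The 10 mature products followed here were chosen by name: miR-23a-3p (MIMAT0000078), miR-23a-5p (MIMAT0004496), miR-27a-3p (MIMAT0000084), miR-27a-5p (MIMAT0004501), miR-24-2-5p (MIMAT0004497) and miR-24-3p (MIMAT0000080) from chromosome 19, and miR-23b-3p (MIMAT0000418), miR-27b-3p (MIMAT0000419), miR-27b-5p (MIMAT0004588) and miR-24-1-5p (MIMAT0000079) from chromosome 9. They are 10 of the 2652 mature miRNAs in the count tables. The mature miR-24-3p is encoded in both clusters, and its locus with the larger total count was used.

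Small RNA was sequenced from SBC-3, a human small cell lung cancer line that the labels give as wild type in all libraries. Every culture was reverse transfected at 10 nM with either a small interfering RNA (siRNA) or an antisense oligonucleotide (ASO) and harvested after 72 h. There were 24 libraries in 8 groups of 3. The groups received siSFPQ-2 or siSFPQ-3, 2 siRNAs against SFPQ, siNONO-3 or siNONO-4, 2 siRNAs against NONO, ASO-NEAT1-1047 or ASO-NEAT1-1473, 2 ASOs against NEAT1, and a control siRNA (siCtrl) or a control ASO (ASO-Ctrl). SFPQ and NONO are partner RNA-binding proteins of the nucleus, and NEAT1 is the long noncoding RNA on which nuclear bodies called paraspeckles assemble. The design asked how loss of each of them changes miRNA levels. The labels do not say whether the 3 libraries of a group came from separate cultures, so p-values measure the spread between these libraries, which may be technical. The levels of SFPQ, NONO and NEAT1 transcripts are not measured in small RNA libraries, so the knockdowns were not checked here.

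As background, clustered miRNAs are transcribed together in one long primary transcript. In the nucleus the Drosha and DGCR8 proteins cut out each hairpin separately, and in the cytoplasm Dicer trims the hairpin to a short duplex. One strand of that duplex is usually kept in an Argonaute protein and the other is degraded, so the 5p and 3p arms of one hairpin can reach very different levels. A mature miRNA recognises its targets mainly through its seed, bases 2 to 8. Among well-studied targets, miR-27 represses PPARG, a master regulator of fat cell differentiation, and miR-24 represses cell cycle genes such as E2F2.

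The chromosome 19 cluster lies on the minus strand at chr19:13836287-13836659 (hg38), a span of 373 bases that holds the hairpins MIR23A, MIR27A and MIR24-2. GENCODE v29 places all 3 in the single exon of the antisense gene AC020916.1. The chromosome 9 cluster lies on the plus strand at chr9:95085208-95086088 (hg38), a span of 881 bases that holds MIR23B, MIR27B and MIR24-1. All 3 lie inside the protein-coding gene C9orf3, where MIR24-1 overlaps exon 7 of 1 of its transcripts and MIR23B and MIR27B are intronic.

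The mature sequences show which products can be told apart by their reads. They are given 5′ to 3′ from RefSeq (GRCh38.p14) with the seed in capitals, first the miR-23 products, then miR-27, then miR-24.
miR-23a-3p: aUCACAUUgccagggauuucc
miR-23b-3p: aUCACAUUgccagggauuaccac
miR-23c: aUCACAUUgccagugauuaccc
miR-27a-3p: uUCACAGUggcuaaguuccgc
miR-27b-3p: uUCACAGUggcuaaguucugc
miR-24-3p: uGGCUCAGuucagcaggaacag
miR-27a-5p: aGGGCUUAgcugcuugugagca
miR-27b-5p: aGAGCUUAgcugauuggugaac

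Within a family the 3p products share their seed. Counting from 1 at the 5′ end, the first 21 bases of miR-23a-3p and miR-23b-3p differ by 1 substitution, U19A. Those of miR-27a-3p and miR-27b-3p also differ by 1, C19U. miR-23c, encoded on chromosome X and outside both clusters, differs from miR-23b-3p over 21 bases by G14U. The 5p arms are less alike. Compared base by base without gaps, miR-27a-5p and miR-27b-5p differ at 8 of 22 bases, the first of them, G3A, within the seed. An extra g in miR-27b-5p shifts the bases after it, so part of the 8 comes from that shift.

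The arms can be located on the 2 miR-27 hairpins, shown because the arm balance of this pair is described further on. RefSeq's hairpin is written 5′ to 3′ with the mature arms in capitals, the 5p arm first.
MIR27A: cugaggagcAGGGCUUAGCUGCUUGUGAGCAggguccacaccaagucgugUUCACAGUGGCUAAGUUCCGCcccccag
MIR27B: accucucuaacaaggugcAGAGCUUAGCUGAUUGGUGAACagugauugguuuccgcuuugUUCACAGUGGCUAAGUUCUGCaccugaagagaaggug

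The near-identical 3p products drew nearly the same counts. The count of miR-27a-3p was 0.991 to 1.02 times that of miR-27b-3p in the 24 libraries, so these rows cannot be separated and are read as one measurement. The count of miR-23a-3p was 1.01 to 1.12 times that of miR-23b-3p, and miR-23c reached 30.6% to 36.7% of miR-23a-3p. The miR-23 rows therefore also share most of their reads, and only the small difference between them bears on the cluster of origin.

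The libraries held 2038382 to 4279644 counts over miRNAs and 927 to 1220 detected miRNAs each, and all 24 pairs of replicates differed beyond sampling noise. Of the cell type markers, miR-9-5p stood at 82540 to 97540 CPM in the 6 control libraries and miR-7-5p at 9546 to 16670 CPM. Both are neural or neuroendocrine miRNAs. miR-375-3p, another neuroendocrine miRNA, was near 0 there at 0.257 to 1.14 CPM, and liver miR-122-5p was at 0 in all 24 libraries. CPM are counts set relative to the library total after TMM scaling, a normalization that assumes most miRNAs do not change.

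Of the 10 products, 7 had enough counts to be tested. miR-23a-5p had 0 to 4 counts per library (12 of 24 libraries with any) and miR-24-2-5p had 0 to 3 (10 libraries with any), so both scarcer arms of these chromosome 19 hairpins were near the limit that a count of 0 allows. That limit is 3 counts, or 0.701 CPM in the deepest library and 1.47 CPM in the shallowest, and it covers counting error only. miR-24-1-5p had 0 counts in all 24 libraries. The chromosome 9 locus of miR-24-3p also had 0 counts, against 982 to 3450 per library at the chromosome 19 locus, although the mature sequence is the same. On the opposite strand the chromosome 9 hairpin is overlapped by MIR3074. Over the whole table, 89.3% of the 140 loci overlapped on the opposite strand by at least 10 bases had 0 counts in every library, against 17.4% of the other loci. At this hairpin miR-3074-5p also had 0 counts, but miR-3074-3p, which overlaps miR-24-1-5p, had 0 to 5 per library (20 libraries with any). Why overlapped loci were mostly at 0 was not tested. The zeros on chromosome 9 are therefore not read as a measure of MIR24-1, and the source of the miR-24-3p reads cannot be told apart.

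With SFPQ knockdown, the miR-23 rows and the 5p arm of miR-27a rose, while the miR-27-3p rows and miR-24-3p, products of the same clusters, did not pass the test. These are levels in bulk RNA, in which fewer cells with a product and less of it per cell cannot be told apart. Of the 7 tested products, 3 were higher and 0 lower than with siCtrl (edgeR's quasi-likelihood test, Benjamini-Hochberg adjusted p at most 0.05 over 626 miRNAs). In the same comparison 25.6% of all tested miRNAs were higher and 22.7% lower, so 3 of 7 is read against a background in which 48.2% of miRNAs were called. The median log2 fold change of the 7 was 0.57, against 0.02 over all 626 miRNAs. The miR-23 rows share reads, so 3 calls are not 3 independent events.

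miR-23a-3p measured 1245, 1057 and 837 CPM with siSFPQ-2 and 1171, 1152 and 823 CPM with siSFPQ-3, against 710.1, 647 and 617 CPM with siCtrl. All 6 knockdown libraries were above all 3 control libraries, a pattern that 19.8% of the 626 miRNAs showed. The log2 fold change was 0.67 ± 0.17 (SE, 6 libraries against 3, 1.59-fold, adjusted p = 0.00198). miR-23b-3p measured 1113, 981 and 757 CPM with siSFPQ-2 and 1079, 1036 and 756 CPM with siSFPQ-3, against 702, 629 and 593 CPM with siCtrl. It too had no overlap between the groups, and its log2 fold change was 0.57 ± 0.16 (adjusted p = 0.00658). With no filter on low counts its adjusted p was 0.057, and with only the compared groups in the model it was 0.0594. The related miR-23c, which shares the miR-23 reads, measured 260.0 to 393 CPM with the SFPQ siRNAs and 194 to 231 CPM with siCtrl. The scarce other arm of MIR23B, miR-23b-5p, did not show this rise. It measured 0.732 to 1.58 CPM with siSFPQ-2 and 2.49 to 2.85 CPM with siSFPQ-3, against 2.325 to 4.12 CPM with siCtrl. It had only 1 to 13 counts per library, and no test of it is given. The scarce arm of MIR23A, miR-23a-5p, measured 0.302 to 0.775 CPM with the SFPQ siRNAs and 0 to 0.664 CPM with siCtrl. These ranges overlapped at 0 to 4 counts per library, and that arm was not tested either.

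miR-27a-5p, the scarcer arm of the MIR27A hairpin, had the largest change among the 7 products. It measured 39.8, 72.6 and 107 CPM with siSFPQ-2 and 46.8, 48.0 and 64.4 CPM with siSFPQ-3, against 24.4, 9.96 and 8.81 CPM with siCtrl. The groups did not overlap, and 1 control library lay well above the other 2. The log2 fold change was 2.10 ± 0.43 (4.27-fold, adjusted p = 0.000386), and it was 2.69 without siCtrl replicate 1. Its sequence counterpart on chromosome 9, miR-27b-5p, measured 16.0, 13.6 and 6.22 CPM with siSFPQ-2 and 12.9, 15.6 and 10.1 CPM with siSFPQ-3, against 9.74, 6.97 and 6.61 CPM with siCtrl. Here 5 of 6 knockdown libraries were above every control library and 1 was below them all. For this mixed pattern no share of all miRNAs was counted. The log2 fold change of 0.67 ± 0.35 missed the threshold (adjusted p = 0.119), and without siSFPQ-2 replicate 3 it was 0.84 (adjusted p = 0.0405).

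The abundant miR-27-3p rows overlapped between the groups. miR-27a-3p measured 2008, 1781 and 1257 CPM with siSFPQ-2 and 1902, 2363 and 1537 CPM with siSFPQ-3, against 2033, 1732 and 1685 CPM with siCtrl. Only 1 knockdown library exceeded every control and 2 were below them all. The log2 fold change was -0.01 ± 0.17 (adjusted p = 0.969), and miR-27b-3p, which reads the same molecules, gave -0.03 ± 0.17. miR-24-3p measured 687, 710.1 and 532 CPM with siSFPQ-2 and 600.2, 756 and 521 CPM with siSFPQ-3, against 724, 515 and 549 CPM with siCtrl. These values overlapped as well, with a log2 fold change of 0.09 ± 0.16 (adjusted p = 0.684).

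**Figure D1:**
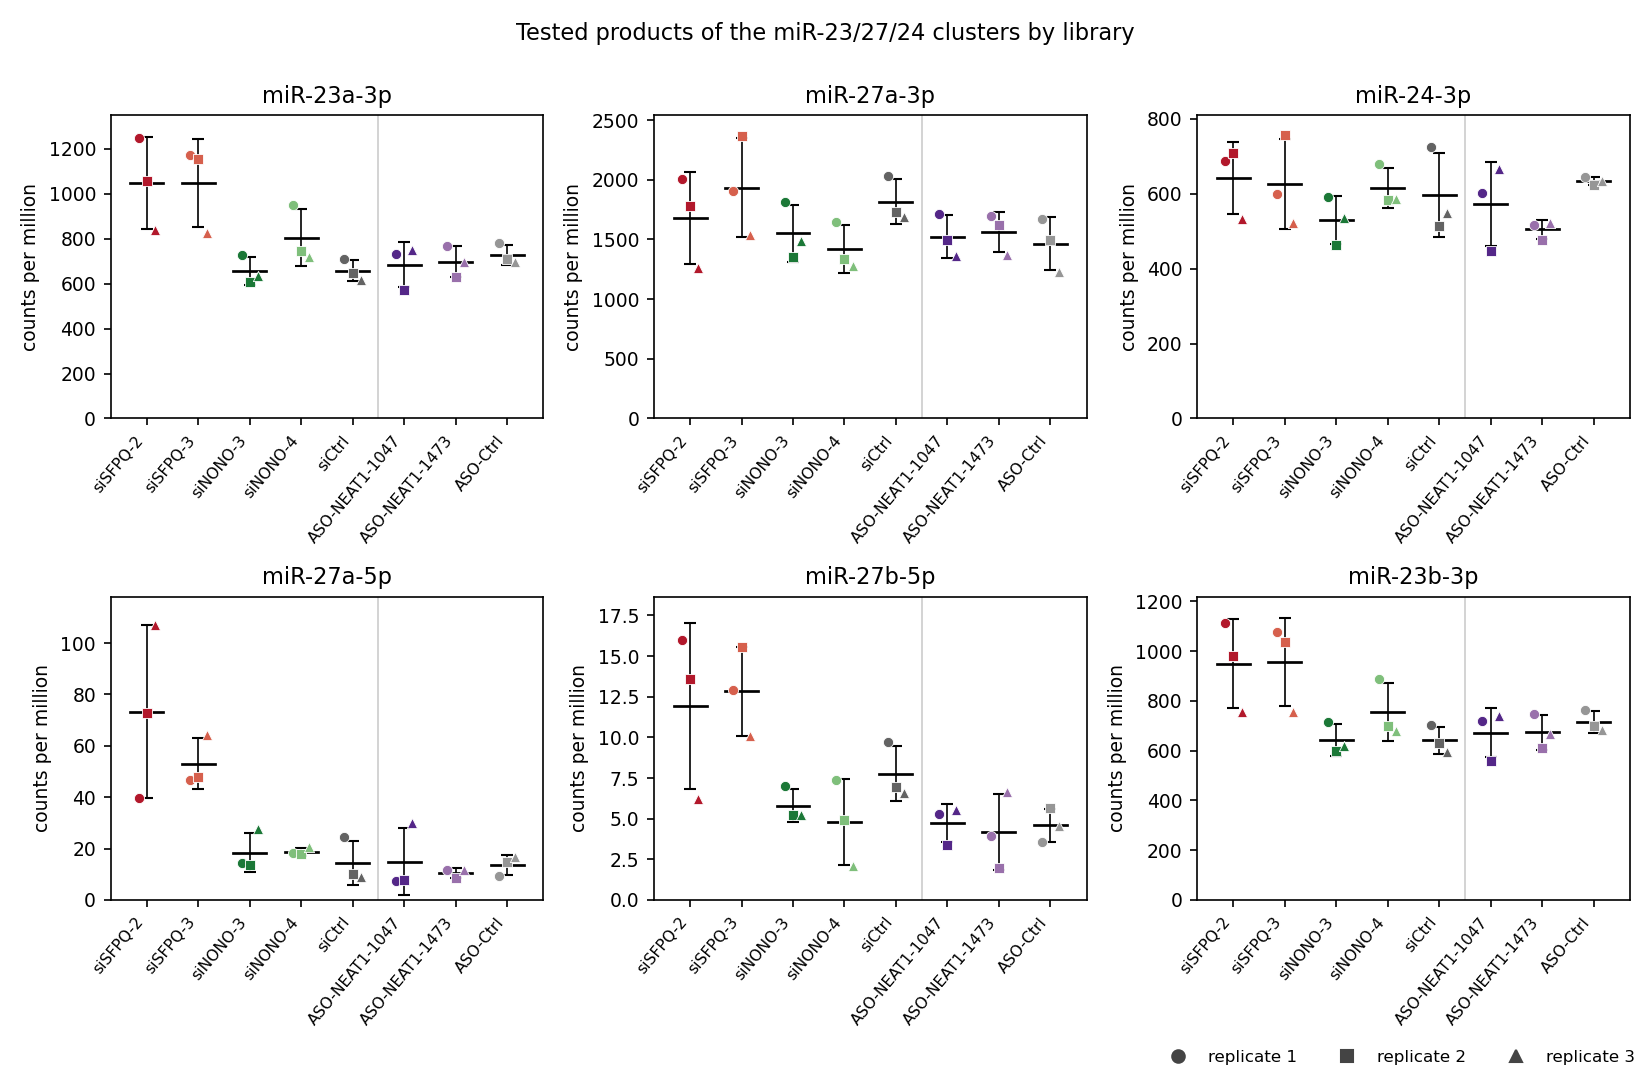
CPM (linear axis from 0) of 6 tested products in each of the 24 libraries; points are libraries, marked by replicate number, black lines are group means and bars ± 1 SD (n = 3), and the vertical line divides siRNA from ASO groups. In the miR-23a-3p, miR-23b-3p and miR-27a-5p panels all 6 siSFPQ points lie above the 3 siCtrl points, and in the miR-27a-3p and miR-24-3p panels they overlap.

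The scaling of the libraries bears on this comparison. With library totals in place of TMM the median log2 fold change of all 626 miRNAs moved to 0.47, with 252 higher and 67 lower in place of 160 and 142. With the spike-in totals the median was 0.21. On library totals 5 of the 7 products were called, with miR-24-3p at 0.55 (adjusted p = 0.0102) and miR-27b-5p at 1.12 (adjusted p = 0.011) added, both read against that shifted median. miR-27a-3p turned to 0.44 with library totals and to 0.21 with the spike-ins, both close to the shifted median of the same scaling.

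Each SFPQ siRNA was also set against siCtrl on its own. With siSFPQ-2 the log2 fold changes against siCtrl were 0.67 ± 0.19 for miR-23a-3p, 0.57 ± 0.19 for miR-23b-3p and 2.33 ± 0.47 for miR-27a-5p. With siSFPQ-3 they were 0.67 ± 0.19, 0.58 ± 0.19 and 1.86 ± 0.46 for the same products. All 6 values passed the test. They belong to the 3 products already called with both siRNAs together, against the same siCtrl libraries, so these calls are not independent. Each siRNA had 3 of the 7 products called, where 38.7% of miRNAs were called with siSFPQ-2 and 44.4% with siSFPQ-3. The count of 3 of 7 is near those shares. With no filter on low counts, or with only the compared groups in the model, 3 single-siRNA calls were made in place of 6, and without siSFPQ-2 replicate 1 there were 4. Set directly against each other, siSFPQ-3 minus siSFPQ-2, 0 of the 7 products passed by edgeR (0 at an unadjusted p under 0.05) and 0 by DESeq2, where 0.639% of miRNAs did. The largest of these differences was -0.46 ± 0.43, for miR-27a-5p.

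NONO knockdown gave 0 calls among the 7 products by edgeR's test, at a background of 1.6% of miRNAs called in either direction, and 0 of the 7 had an unadjusted p under 0.05. DESeq2 also called 0. Taken singly, siNONO-3 and siNONO-4 gave 0 calls each, where 2.56% and 0.958% of miRNAs were called, and 0 of the 7 differed between them. miR-23a-3p measured 728, 608 and 634 CPM with siNONO-3 and 950, 745 and 719 CPM with siNONO-4, against 710.1, 647 and 617 CPM with siCtrl. All 3 siNONO-4 libraries were above the control libraries and the siNONO-3 libraries overlapped them. The log2 fold change over both siRNAs was 0.14 ± 0.16 (adjusted p = 0.851). miR-27a-5p measured 14.3, 13.7 and 27.4 CPM with siNONO-3 and 18.2, 17.7 and 20.6 CPM with siNONO-4, and its log2 fold change was 0.36 ± 0.42 (adjusted p = 0.852). That value ranged from 0.07 to 0.91 when single libraries were left out. miR-27a-3p was at -0.29 ± 0.17 (adjusted p = 0.547), with 5 of 6 knockdown libraries below every control library. How many of all miRNAs showed such positions with siNONO-4 or with both NONO siRNAs was not counted.

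NEAT1 knockdown gave 0 calls among the 7 products and 0 among all 626 miRNAs (0% called) by edgeR's test, with 0 of the 7 and 19 of the 626 at an unadjusted p under 0.05. DESeq2 also called 0 of the 7. The log2 fold changes lay between -0.24 ± 0.16 for miR-24-3p and 0.07 ± 0.17 for miR-27a-3p. miR-24-3p measured 603, 448 and 665 CPM with ASO-NEAT1-1047 and 516, 476 and 522 CPM with ASO-NEAT1-1473, against 645, 624 and 635 CPM with ASO-Ctrl. Of the 6 knockdown libraries 5 were below every control library and 1 above them all (adjusted p = 0.908). Such positions were not counted over all miRNAs. miR-27a-5p measured 7.49, 7.61 and 29.8 CPM with ASO-NEAT1-1047 and 11.8, 8.37 and 11.6 CPM with ASO-NEAT1-1473, against 9.50, 14.7 and 16.8 CPM with ASO-Ctrl, so 1 knockdown library stood far above the other 5.

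The control reagents were also compared. Between ASO-Ctrl and siCtrl 0 of the 7 products passed edgeR's test (0 at an unadjusted p under 0.05) or DESeq2's, where 0.479% of miRNAs did. For miR-27a-3p all 3 ASO-Ctrl libraries, at 1672, 1491 and 1231 CPM, were below the 3 siCtrl libraries, with a log2 difference of -0.31 ± 0.20 (adjusted p = 0.755). The share of all miRNAs with such a gap was not counted.

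**Figure D2:**
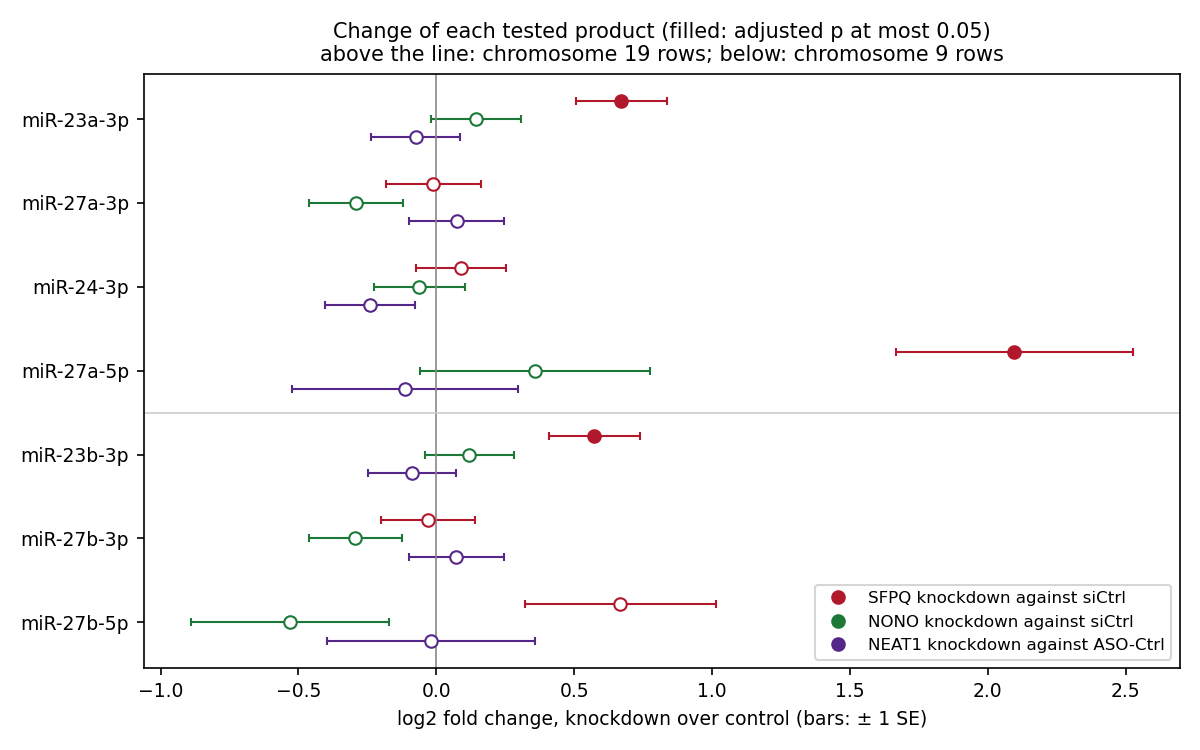
Log2 fold change (horizontal axis, knockdown over control, bars ± 1 SE) of the 7 tested products for SFPQ, NONO and NEAT1 knockdown; filled points passed at an adjusted p of at most 0.05. The filled points are miR-23a-3p at 0.67, miR-27a-5p at 2.10 and miR-23b-3p at 0.57, all for SFPQ, and the NONO and NEAT1 points are open.

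The difference between SFPQ and NONO knockdown was tested directly in the same model. Of the 7 products 4 were higher with SFPQ knockdown and 0 lower, at a background of 29.7% of miRNAs higher and 26.8% lower, 56.5% in all. miR-27a-5p differed by 1.74 ± 0.32 on the log2 scale (adjusted p = 6.67e-05), with all 6 SFPQ libraries above all 6 NONO libraries. miR-27b-5p differed by 1.20 ± 0.28 (adjusted p = 0.000817), with 5 of 6 SFPQ libraries above every NONO library, where it measured 7.002, 5.21 and 5.21 CPM with siNONO-3 and 7.38, 4.92 and 2.06 CPM with siNONO-4. miR-23a-3p differed by 0.53 ± 0.13 (adjusted p = 0.0015) and miR-23b-3p by 0.45 ± 0.13 (adjusted p = 0.00515), each with 4 of 6 SFPQ libraries above every NONO library. How many of all miRNAs showed such positions of the libraries in this comparison was not counted. miR-27a-3p, at 0.28 ± 0.14 (adjusted p = 0.092), and miR-24-3p, at 0.15 ± 0.13 (adjusted p = 0.352), did not pass. The adjusted p of miR-27a-3p was 0.0207 without siSFPQ-2 replicate 3, 0.0414 without siNONO-3 replicate 1 and 0.0233 with a filter at a mean of 10 CPM. All 7 products passed in this comparison when either library totals or spike-in totals set the scale. How many of all miRNAs passed here on those scales was not counted, so this is not read as a result about these products.

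The balance of the arms of the miR-27 hairpins was measured within each library, where no scaling between libraries enters. For each 100 counts of miR-27a-3p there were 1.98, 4.08 and 8.53 counts of miR-27a-5p with siSFPQ-2 and 2.46, 2.03 and 4.19 with siSFPQ-3, against 1.20, 0.575 and 0.523 with siCtrl. All 6 knockdown libraries exceeded the controls, and the spread among the siSFPQ-2 libraries was wide. The share of all hairpins with such a gap was not counted. Tested over the 138 hairpins with both arms measured, the log2 ratio of the MIR27A 5p to 3p arm was higher by 2.18 ± 0.49 (SE, limma, adjusted p = 0.00372). In this comparison 32 of 138 hairpins, 23.2%, had a changed ratio. In the order of the rise of the scarcer arm, MIR27A ranked 2 of 138 here, 4 with NONO knockdown and 117 with NEAT1 knockdown. MIR27B ranked 26, 98 and 94 in the same comparisons. The SFPQ and NONO ranks rest on the same siCtrl libraries, and with NONO knockdown 0 hairpins passed the test.

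For each 100 counts of miR-27b-3p there were 0.802, 0.775 and 0.501 counts of miR-27b-5p with siSFPQ-2 and 0.686, 0.664 and 0.661 with siSFPQ-3, against 0.477, 0.402 and 0.3897 with siCtrl. These groups did not overlap either, again without a counted share of hairpins to set this against. The log2 ratio was higher by 0.64 ± 0.31, which missed the threshold over all hairpins (limma, adjusted p = 0.166). The exact two-sided permutation test of that ratio alone gave p = 0.0238, the smallest that 6 libraries against 3 allow. It restates the lack of overlap. Because the 3p counts hold the reads of both paralogs, each ratio sets a 5p arm of 1 locus against the 3p arms of both.

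With NONO knockdown 0 of 138 hairpins changed by limma (0%, with 14 at an unadjusted p under 0.05), and the MIR27A ratio was at 0.77 ± 0.49 (adjusted p = 0.503). There were 0.786, 1.01 and 1.85 counts of miR-27a-5p per 100 of miR-27a-3p with siNONO-3 and 1.103, 1.32 and 1.62 with siNONO-4. With NEAT1 knockdown 0 hairpins changed as well (0%, with 6 at an unadjusted p under 0.05), and MIR27A was at -0.31 ± 0.49 (adjusted p = 0.862). SFPQ knockdown set directly against NONO knockdown differed in the MIR27A ratio by 1.42 ± 0.40 (limma, adjusted p = 0.0105) and in the MIR27B ratio by 0.91 ± 0.25 (adjusted p = 0.0103), where 30.4% of hairpins differed.

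**Figure D3:**
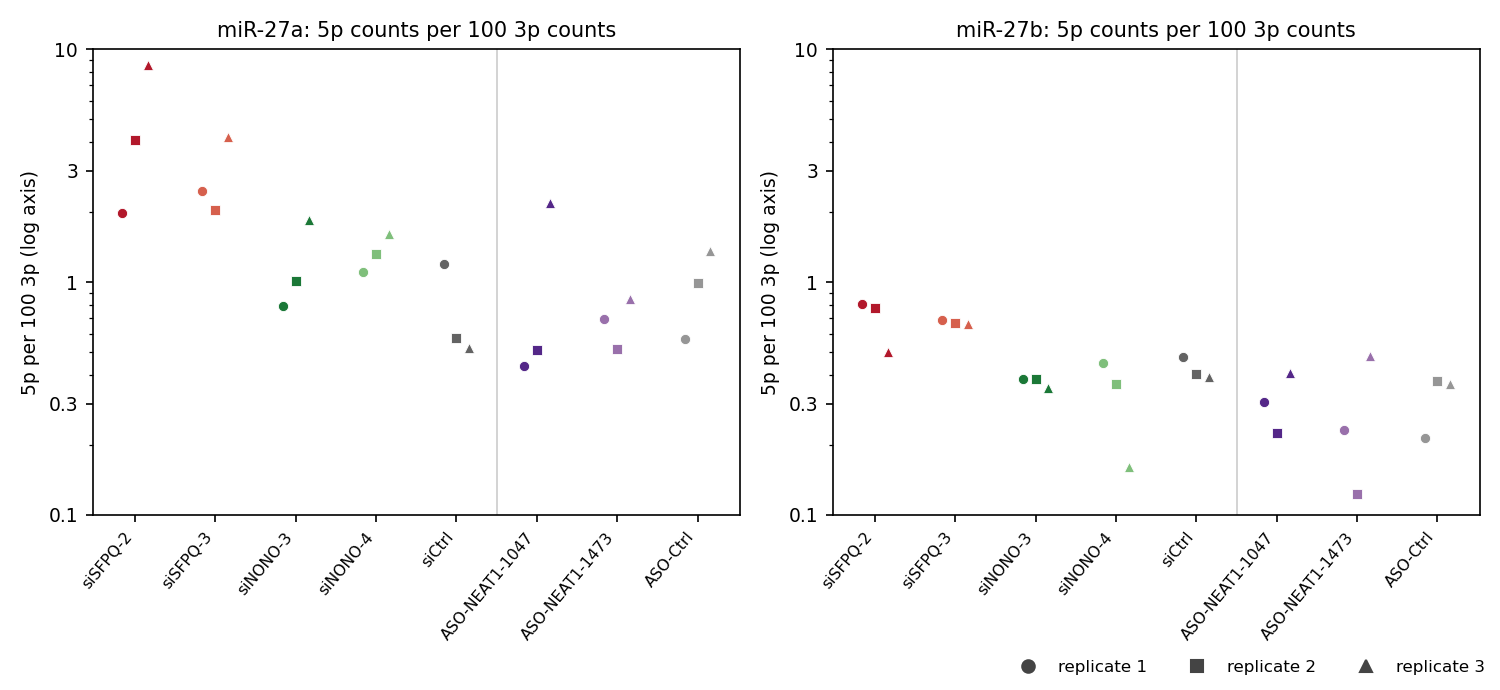
Counts of the 5p arm per 100 counts of the 3p arm (log axis) for miR-27a, left, and miR-27b, right, in each library, with replicate numbers as marker shapes. The siSFPQ points lie between 1.98 and 8.53 for miR-27a and between 0.501 and 0.802 for miR-27b, above the siCtrl points at 0.523 to 1.20 and 0.3897 to 0.477.

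The small differences between paralogous rows were compared within each library. Reads counted in both rows remain in these percentages and ratios. The count of miR-23a-3p exceeded that of miR-23b-3p by 11.8%, 7.72% and 10.6% of the miR-23b-3p count with siSFPQ-2 and by 8.53%, 11.1% and 8.89% with siSFPQ-3, against 1.18%, 2.74% and 3.99% with siCtrl. The groups were well apart. The log2 ratio rose by 0.097 with SFPQ knockdown (exact two-sided permutation test over 84 splits, unadjusted p = 0.0238, the smallest possible). With NONO knockdown the change was 0.022 (p = 0.357, exact permutation test), but the siRNAs gave values that did not overlap, at 6.09% to 6.88% with siNONO-4 and 1.73% to 2.41% with siNONO-3. With NEAT1 knockdown it was 0.012 (p = 0.19, exact permutation test), with excesses of 1.383% to 4.42% over both ASOs and 1.39% to 1.98% with ASO-Ctrl.

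For miR-27 the difference was smaller and changed sign. miR-27a-3p exceeded miR-27b-3p by 0.605% to 1.71% in the 6 siSFPQ libraries, while in the other 18 libraries it was lower by values between -0.869% and -0.128%. In reads, the difference was 40, 95 and 39 counts with siSFPQ-2 and 95, 95 and 47 with siSFPQ-3, against -22, -8 and -18 with siCtrl. The rows were within 10% of each other in every library, are read as one measurement and so were not tested. How many other pairs of near-identical rows showed such a gap was not counted. The 5p arms, whose counts were not so close, gave a log2 ratio of miR-27a-5p to miR-27b-5p that was higher by 1.58 with SFPQ knockdown (p = 0.0238, exact permutation test). The lowest siSFPQ library, at 1.29, lay just above the highest siCtrl library, at 1.26, and the ASO-Ctrl libraries, at 1.26, 1.28 and 1.74, overlapped the siSFPQ range. The difference was 1.04 with NONO knockdown (p = 0.0714) and -0.14 with NEAT1 knockdown (p = 0.762), by the same exact test. In all, 6 ratios of a chromosome 19 row to a chromosome 9 row were tested, and these p-values are unadjusted.

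**Figure D4:**
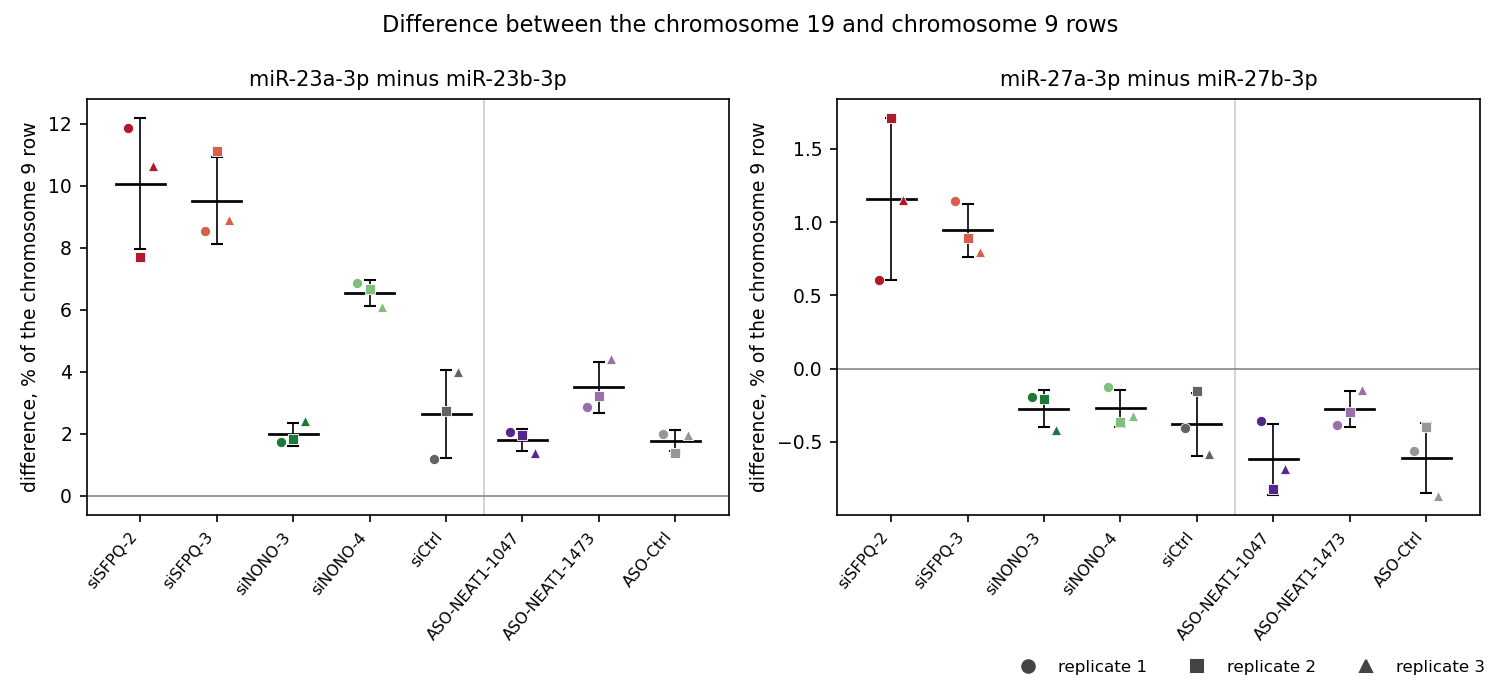
Difference between the chromosome 19 row and the chromosome 9 row as a percent of the chromosome 9 row (linear axis) for miR-23-3p, left, and miR-27-3p, right, per library, with group means and ± 1 SD (n = 3). For miR-23 the siSFPQ libraries lie at 7.72% to 11.8% and siNONO-4 at 6.09% to 6.88%, above the siCtrl libraries at 1.18% to 3.99%; for miR-27 the siSFPQ points are above 0 and all others below it.

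Rows named for products of one cluster were also set against each other within libraries, a comparison added after the values had been seen. Except for miR-27a-5p, the reads of these rows cannot all be assigned to a single cluster. None of these ratios therefore compares products of a single cluster alone. The log2 ratio of miR-23a-3p to miR-27a-3p was -0.69, -0.75 and -0.59 with siSFPQ-2 and -0.70, -1.04 and -0.90 with siSFPQ-3, against -1.52, -1.42 and -1.45 with siCtrl. It was higher by 0.68 with SFPQ knockdown (p = 0.0238, exact permutation test). With NONO knockdown it was higher by 0.43 (p = 0.0238, exact permutation test), with siNONO-3 between -1.32 and -1.15 and siNONO-4 between -0.85 and -0.79. The ASO-Ctrl libraries, at -1.10, -1.07 and -0.82, also lay above siCtrl and overlapped the siSFPQ range. NEAT1 knockdown differed from ASO-Ctrl by -0.16 (p = 0.286, exact permutation test).

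Set against miR-24-3p, the miR-23a-3p ratio was 0.57 to 0.96 on the log2 scale with the SFPQ siRNAs, against -0.03 to 0.33 with siCtrl and 0.13 to 0.27 with ASO-Ctrl. It was higher than with siCtrl by 0.56 with SFPQ knockdown (p = 0.0238, exact permutation test), and here the siSFPQ libraries were above the libraries of both controls. The lowest of them, siSFPQ-2 replicate 2 at 0.5735, lay just below ASO-NEAT1-1473 replicate 1 at 0.5741. The differences were 0.19 with NONO knockdown and 0.17 with NEAT1 knockdown (p = 0.0952 for each, exact permutation test). The ratio of miR-27a-3p to miR-24-3p differed by -0.12 with SFPQ knockdown (p = 0.381, exact permutation test). That of miR-27a-5p to miR-24-3p was higher by 2.05 (p = 0.0238, exact permutation test). In all, 12 such ratios were tested and the p-values are unadjusted.

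**Figure D5:**
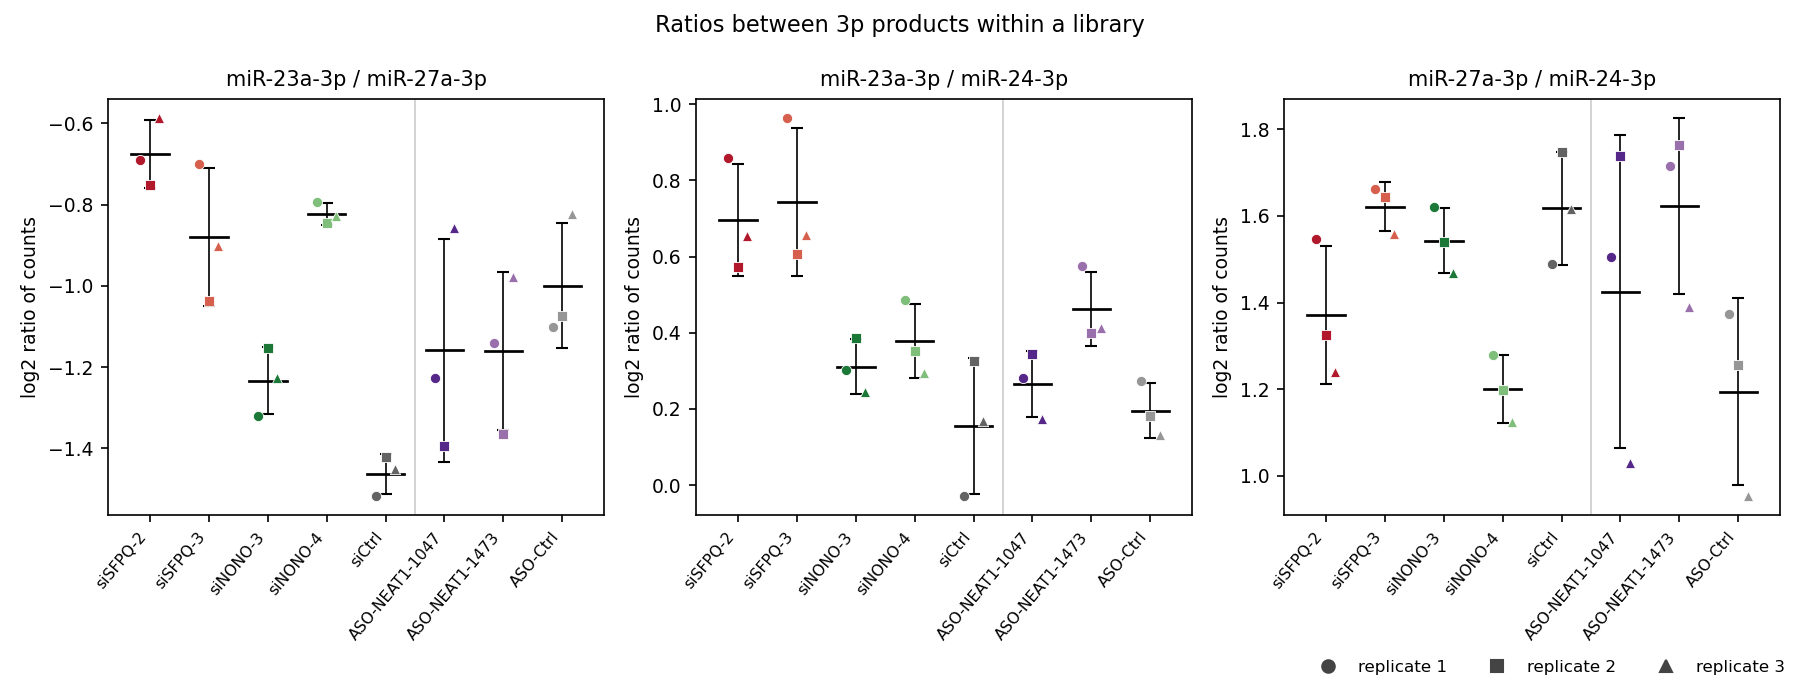
Log2 ratio of counts (linear axis) between the 3p products miR-23a-3p, miR-27a-3p and miR-24-3p in each library, with group means and ± 1 SD (n = 3). The reads of these products cannot all be assigned to a single cluster. In the left panel siCtrl is lowest, at -1.52 to -1.42, and ASO-Ctrl overlaps siSFPQ; in the middle panel the siSFPQ points, at 0.57 to 0.96, lie above both controls.

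The miRNAs whose log2 CPM followed these products most closely over the 24 libraries were sought among 388 others with a mean of at least 10 CPM. For miR-23a-3p they were miR-331-3p (Pearson r 0.90), miR-192-5p (0.89) and miR-744-5p (0.89). For miR-23b-3p they were miR-744-5p (0.88), miR-197-3p (0.88) and miR-331-3p (0.87). For miR-27a-5p they were miR-25-5p, miR-200b-3p and miR-200c-3p, each at 0.91. The libraries fall into treatment groups, so these values are descriptions.

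Families for comparison gave counts of their own with SFPQ knockdown, over the members that could be named, so their lists are incomplete. Of the 7 tested products named as miR-30 family, 4 were higher and 0 lower (median log2 fold change 0.44). Of the 9 of the miR-181 family, 7 were higher and 0 lower (median 1.384). The background of 25.6% higher applies to these counts as well.

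The levels of cell type markers are given beside these results. The summed level of 3 of 3 epithelial markers, miR-200c-3p, miR-141-3p and miR-205-5p, was 371 to 487 CPM with the SFPQ siRNAs, against 90.3 to 148 CPM with siCtrl. The sum of the 5 neural markers found was 63300 to 86100 CPM, against 105200 to 121400 CPM with siCtrl, and most of it was miR-9-5p. This sum therefore does not show whether the other neural markers moved the same way. The 5 stromal markers summed to 772 to 957 CPM, against 1275 to 1343 CPM with siCtrl. Of the blood markers 3 were found, and they summed to 27.1 to 65.7 CPM, against 49.5 to 104 CPM with siCtrl, overlapping ranges, with miR-223-3p near 0 at no more than 0.874 CPM in any library. These sums were not tested, and their part in the results above was not tested.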

How the data were processed

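Small RNA libraries of SBC-3 cells were grouped and numbered by their sample titles. Per the labels' protocols, spike-ins were added to 100 ng of RNA before a QIAseq library preparation. The deposited values are whole-number counts for each miRNA locus and spike-in, and the file headers name featureCounts 2.0.3 as the counter. DESeq2 1.38.1, Subread 2.0.3, Bowtie 1.3.0, Trimmomatic 0.39, UMI-tools 1.1.1 and the build hg38 are listed in the submitters' processing notes. Alignment settings, the use of strand in counting and the collapsing of molecular identifiers are not given in the sources used here. Reads shared by paralogs are therefore reported as such.

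Each table held 2883 loci and 52 spike-ins (45784 to 136178 spike-in counts per library). The locus with the largest total was kept for each of 2652 mature miRNAs. Names came from RefSeq (GRCh38.p14) by position within 3 bases and were found for 2364. edgeR 4.0.16 (limma 3.58.1, R 4.3.3) was fitted to all 24 libraries with TMM factors and 1 term per group. The 626 miRNAs tested, 99.97% of the counts, were those kept by filterByExpr at a minimum count of 10, with 16 residual degrees of freedom and a common biological coefficient of variation of 0.25. Its quasi-likelihood test gave the p-values, adjusted over the 626 by the Benjamini-Hochberg method with a threshold of 0.05. Each knockdown effect averages 2 reagents and subtracts their control, and the SFPQ and NONO comparisons share the siCtrl libraries. Standard errors (SE) of log2 changes were computed as their absolute value over the root of the F statistic. Arm ratios used a prior count of 2 and limma over 138 hairpins. Single ratios used the exact two-sided permutation test over libraries (scipy 1.17.1). The fits were tested on simulated data.

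The rule for named miRNAs covered all 10 products, 4 relatives, the 3 closest miRNAs in pattern for miR-23a-3p, miR-23b-3p and miR-27a-5p, and the miR-30 and miR-181 families for comparison. The products, lists and tests were chosen with earlier results of these data known. Alternatives were RLE size factors, library totals, spike-in totals, DESeq2 1.42.0, the replicate block, no filter, a minimum mean of 10 CPM, the mean over loci, a fit of only the compared groups, other prior counts and leaving out each library.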

Additional observations from a re-analysis of the deposited data

Results flagged for a closer look

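The response to SFPQ knockdown differed from that to NONO knockdown for 4 of the 7 tested products when the difference itself was tested with edgeR in the model of all libraries. On the log2 scale, SFPQ minus NONO, it was 1.74 for miR-27a-5p, 1.20 for miR-27b-5p, 0.53 for miR-23a-3p and 0.45 for miR-23b-3p. In this comparison 29.7% of all tested miRNAs were higher with SFPQ knockdown and 26.8% lower, 56.5% in all. The count of 4 of 7 is therefore near the share of all miRNAs that differed. The miR-23 rows share most of their reads, so their values are not independent of each other.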

How the results depend on the processing

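Over 62 results and 983 alternative values, 927 were labelled as unchanged. They kept their direction and their side of the threshold or, for counts of calls, stayed within 1.5 times the reported count. Single ratios without a library had no test. They were labelled as unchanged when they moved by less than the pooled SD of the libraries, even if the sign of a ratio that had not passed turned. miR-23a-3p and miR-27a-5p kept their SFPQ calls in every alternative run, at log2 fold changes of 0.66 to 1.12 and 1.99 to 2.57 over other settings and of 0.59 to 0.77 and 1.84 to 2.69 without single libraries. Scaling moved the counts most. On library totals 5 products were called for SFPQ against siCtrl in place of 3, 7 for SFPQ against NONO in place of 4, and 12 in the 6 single-reagent comparisons in place of 6. On spike-in totals 7 were called for SFPQ against NONO. Of all miRNAs, 40.3% were higher for SFPQ against siCtrl on library totals. The shares for SFPQ against NONO and for single reagents on these scales were not counted. With no filter, and with only the compared groups in the model, 3 single-reagent calls were made, and 2 products in place of 3 were called for SFPQ. Leaving out single libraries gave 3 to 4 calls for SFPQ, 4 to 6 for SFPQ against NONO and 4 to 6 for single reagents. Hairpins with a changed arm ratio were 21 to 35 for SFPQ, lowest without siSFPQ-2 replicate 1, and 0 to 1 for NONO, where a prior count of 5 also gave 1. The cause was not tested.

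Signs turned for values near 0 that had not passed the test. For SFPQ, miR-27a-3p was at 0.44 on library totals, 0.21 on spike-in totals and 0.0059 with a mean of at least 10 CPM, and from -0.13 to 0.095 without single libraries. miR-27b-3p was at 0.42, 0.19 and, without single libraries, -0.15 to 0.075. miR-24-3p was at -0.023 to 0.21 without single libraries. For NONO, miR-24-3p was at 0.060 on library totals and -0.19 to 0.042 without single libraries. For NEAT1, leaving out single libraries gave -0.14 to 0.040 for miR-23a-3p, -0.15 to 0.026 for miR-23b-3p, -0.061 to 0.25 for miR-27a-3p, -0.062 to 0.25 for miR-27b-3p, -0.55 to 0.020 for miR-27a-5p, -0.27 to 0.16 for miR-27b-5p and -0.42 to 0.033 for the MIR27B arm ratio. RLE size factors and DESeq2 each gave 0.012 for miR-27b-5p with NEAT1 knockdown. Among the NEAT1 ratios, leaving out single libraries gave -0.34 to 0.028 for miR-27a-5p to miR-27b-5p. For miR-27a-5p to miR-24-3p it gave -0.22 to 0.18. miR-27b-5p was not tested at a mean of at least 10 CPM.

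With the replicate block, miR-27a-3p (0.27, edgeR adjusted p = 0.0359) and miR-27b-3p (0.25, adjusted p = 0.0499) passed for SFPQ against NONO, where 6 products were then called. The block changed no other call of a product, and the samples share only a number: the deviations of same-numbered libraries of different groups correlated between -0.419 and 0.619, those of differently numbered ones between -0.662 and 0.627, with means of 0.164 and -0.082, and the mean was 0.314 for same-numbered libraries of the NEAT1 comparison. Over all settings that did not leave out a library, the adjusted p of miR-27a-3p in that comparison ranged from 0.00141 to 0.283. Depth limits miR-23a-5p and miR-24-2-5p, at no more than 4 and 3 counts in a library.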
